A study of Mus musculus with 17 samples.

Results

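The genes described here are 9 chemokine ligands and 1 chemokine-binding receptor of the vessel wall. They were found by symbol in a count table of 42687 genes, in which all 10 were present: Cxcl1, Cxcl10, Cxcl12, Cxcl16, Cx3cl1, Ccl2, Ccl3, Ccl4, Ccl5 and Ackr1. RNA was sequenced from microvessels isolated from the cortex of mice aged 10 to 11 months, in 17 libraries. The mice were wild type (WT) or APP/PS1, an amyloid model of Alzheimer's disease that carries transgenes for human disease forms of the amyloid precursor protein and presenilin 1. Sample labels give APP as the genotype, and name neither the line nor the promoter of its transgenes. Mice of all 4 groups were injected into the abdomen with 10 mg/kg of a peptide, every 2 days for 2 weeks, and had surgery before the vessels were collected. The peptide was gp91-ds-tat, which inhibits the superoxide-producing oxidase NOX2, or its control sgp91-ds-tat. The sample labels write these as NOX2 and SC, read here as inhibitor and control peptide. The groups were 5 libraries of control-treated WT, 5 of inhibitor-treated WT, 2 of control-treated APP/PS1 and 5 of inhibitor-treated APP/PS1. There was no group without peptide. The labels do not say whether a library is 1 mouse or a pool, or give sex or batch, so p-values measure only the spread between these libraries, which may be partly technical.

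Chemokines are small secreted proteins that direct the movement of leukocytes through receptors on those cells. Many bind heparan sulfate on the endothelial surface, where rolling leukocytes meet them and then arrest. Cxcl12 and Cx3cl1 are made in the resting brain. Most of the others are induced by inflammatory signals. Ackr1, the Duffy antigen receptor, binds many inflammatory chemokines without G protein signalling, and in venules it takes them up, carries them across the endothelium and displays them.

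The libraries held 7316503 to 17862965 counts. Levels are given as CPM, counts relative to library sizes scaled by the TMM method, and a level compared between genes as CPM per kilobase of exon. The 7 brain endothelial markers, Cldn5 and Pecam1 among them, were detected and summed to 2392 to 4437 CPM, but 6 neuron markers summed to 2437 to 4118 CPM and 4 choroid plexus markers to between 27.9 and 7964 CPM, so the preparations held RNA of other cell types. In bulk RNA, fewer cells of a type and less RNA per cell cannot be told apart. The genotype labels were checked on 2 genes. App was at 1894 to 3331 CPM in APP/PS1 and at 1260 to 2227 CPM in WT libraries, which overlap. Prnp, the prion gene, whose promoter drives the transgenes of several APP/PS1 lines, was at 681 to 1416 CPM in APP/PS1 and at 301 to 554 CPM in WT, with no overlap. Replicate 2 of inhibitor-treated WT stood apart in Cxcl1 and Ackr1, and the results that rest on it are given with and without it.

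Per kilobase, the 10 genes spanned a wide range of abundance in these vessels. Cx3cl1 was the most abundant at 158 ± 34.7 CPM per kilobase (mean ± SD, n = 17 libraries). Of the 18753 genes that passed the filter on low counts, those with a known exon length were ranked, and 43 exceeded that level. Cxcl12 followed at 65.1 ± 16.2 and Ackr1 at 21.2 ± 13.6 CPM per kilobase. The other 7 were between 0.244 (Ccl5) and 1.24 (Cxcl16) CPM per kilobase, in the descending order Cxcl16, Ccl3, Cxcl1, Cxcl10, Ccl4, Ccl2 and Ccl5. Of the neighbours in this order, Cx3cl1 and Cxcl12 did not overlap across libraries, nor did Ackr1 and Cxcl16. All other neighbouring pairs overlapped. In the filter a gene needed about 0.882 CPM in enough libraries. It kept 7 of the 10 genes and left out Ccl2, Ccl4 and Ccl5. Cxcl1 reached that level in 2 libraries, Ccl3 in 6 and Cxcl10 in 7, so the libraries in which these genes were high decided that they were tested. The 6 for Ccl3 were all APP/PS1 libraries, and the 2 for Cxcl1 were both inhibitor-treated WT.

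**Figure D1:**
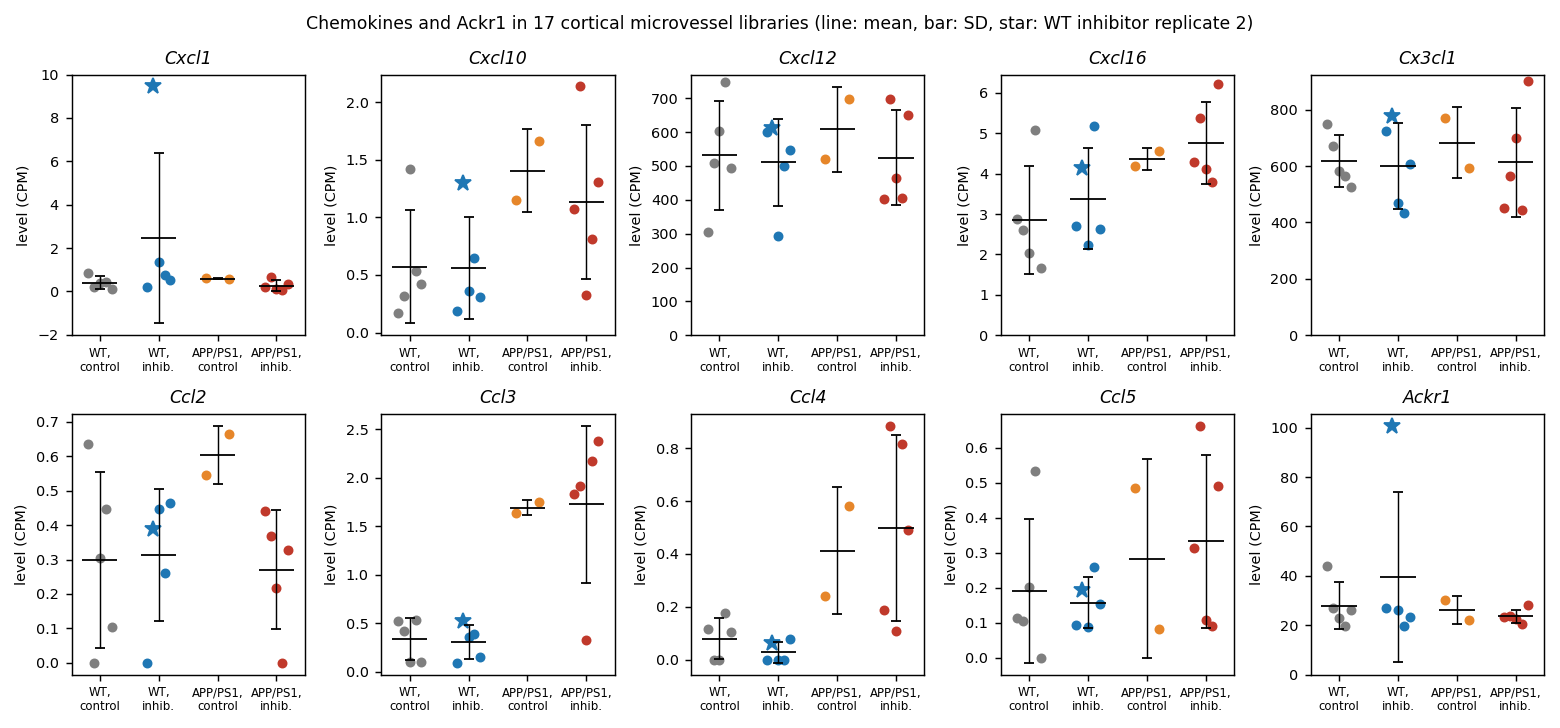
Level of each of the 10 genes (vertical axis, CPM, each panel on its own scale) in the 17 libraries of the 4 groups, with 1 point per library and the group mean ± SD. Ccl3 and Ccl4 sit higher in APP/PS1, and replicate 2 of inhibitor-treated WT stands above all other libraries for Cxcl1 (9.46 CPM) and Ackr1 (101 CPM).

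The first comparison was APP/PS1 against WT over both peptides, 7 against 10 libraries, with peptide as a term of the model. Of the 7 genes tested, 1 was higher in APP/PS1 (Ccl3) and none was lower, against a background of 0.587% of all genes tested called, 0.565% higher and 0.0213% lower. Ccl3 was 5.13-fold higher. Only APP/PS1 libraries had brought Ccl3 past the filter, so 1 of 7 is not a rate to weigh against that background. The median log2 change of the 7 was 0.10, and that of all genes tested was 0.0017. Besides Ccl3, the genes Cxcl16, Cxcl10 and Cxcl1 had unadjusted p-values under 0.05 and did not pass after adjustment over all genes. Among all 18753 genes tested, 1184 had such p-values.

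Ccl3, also called MIP-1 alpha, attracts monocytes, T cells and microglia. Its gene (ENSMUSG00000000982) lies at chr11:83647844-83649355 on the minus strand of GRCm38. In control-treated WT libraries Ccl3 was at 0.520, 0.419, 0.102, 0.535 and 0.104 CPM. Inhibitor-treated WT libraries gave 0.0934, 0.518, 0.359, 0.389 and 0.155 CPM. The 10 WT libraries therefore all held low levels, from 1 to 9 counts each. The control-treated APP/PS1 libraries were at 1.64 and 1.74 CPM. Inhibitor-treated APP/PS1 libraries were at 1.83, 1.92, 0.325, 2.17 and 2.37 CPM. Thus 6 of the 7 APP/PS1 libraries were above every WT library, and replicate 3 of inhibitor-treated APP/PS1, with 3 counts, lay within the WT range. The log2 change was 2.36 ± 0.36 (SE, edgeR adjusted p = 0.00101), and it passed the threshold in each of the 17 fits that left out 1 library, at 2.24 to 2.51. It also passed in the 4 fits with another test, scaling or filter, the fit without the filter among them, at 2.35 to 2.40.

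With the control peptide alone, the Ccl3 difference did not pass, with a log2 change of 2.21 ± 0.57 (edgeR adjusted p = 0.310) over 2 against 5 libraries that did not overlap. In that comparison 0.0533% of all genes tested were called. With the inhibitor, where 0.181% of genes were called (0.176% higher and 0.00533% lower), the change was 2.47 ± 0.48 (edgeR adjusted p = 0.0353). The latter call was lost in 8 of 10 fits that left out 1 library, with an adjusted p of up to 0.167. It held without replicate 2 of inhibitor-treated WT and without replicate 3 of inhibitor-treated APP/PS1, the low library, where the change was 2.71 ± 0.40.

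Microglial markers were also higher in APP/PS1. Of 6 such genes, 4 were called higher, Cx3cr1, Csf1r and P2ry12 among them, where 0.565% of all genes tested were. The list's median log2 change was 0.66. The summed level of the 6 was 171 to 238 CPM in WT and 205 to 385 CPM in APP/PS1. This sum and Ccl3 did not go together in every library. Replicate 3 of inhibitor-treated APP/PS1, low in Ccl3, had a sum of 271 CPM. Replicate 1 of that group, with Ccl3 at 1.83 CPM, had a sum of 205 CPM. Taken as a percentage of that sum, Ccl3 was at 0.168 ± 0.098% in WT (SD, n = 10, range 0.0392 to 0.280%) and at 0.568 ± 0.247% in APP/PS1 (n = 7, range 0.120 to 0.895%). The mean of this percentage was higher in APP/PS1, but the ranges overlapped, and each WT library held only 1 to 9 Ccl3 counts. Neutrophil markers gave 9.34 to 28.0 CPM in WT and 22.5 to 36.6 CPM in APP/PS1. Most of that sum was Csf3r, which microglia also express: the other 8 neutrophil markers summed to 1.16 to 11.3 CPM in WT and 1.41 to 11.6 CPM in APP/PS1. Without replicate 2 of inhibitor-treated WT, the 9 other WT libraries were at 1.16 to 4.97 CPM. Their median was 2.41 CPM, and that of APP/PS1 was 1.90 CPM. The part of these cell types in the Ccl3 difference was not tested.

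Ccl4, or MIP-1 beta, attracts similar leukocytes and is the neighbour of Ccl3 on the chromosome, at chr11:83662584-83664683 on the opposite strand. It was scarcely detected in WT, with 7 counts over 10 libraries against 42 over the 7 APP/PS1 libraries. Control-treated WT libraries were at 0.116, 0, 0, 0.178 and 0.104 CPM, and inhibitor-treated WT at 0, 0.0648, 0, 0 and 0.0776 CPM. APP/PS1 libraries were at 0.242 and 0.582 CPM with the control peptide and at 0.189, 0.885, 0.108, 0.816 and 0.491 CPM with the inhibitor. Again 6 of 7 APP/PS1 libraries exceeded all WT libraries, and the exception was the same replicate 3 that was low in Ccl3. Ccl4 did not pass the filter, so it has no value in the main test. In a fit without the filter, its log2 change over both peptides was 2.82 ± 0.61 (edgeR adjusted p = 0.0208). Within that fit the call was lost without replicate 2 of control-treated APP/PS1 (adjusted p = 0.120), replicate 2 (0.0731) or 4 (0.0537) of inhibitor-treated APP/PS1, or replicate 1 of inhibitor-treated WT (0.0519). Relative to the microglial marker sum, Ccl4 averaged 0.0274% in WT and 0.149% in APP/PS1.

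Ccl2 and Ccl5 were near the detection limit. Ccl2, or MCP-1, which attracts monocytes through Ccr2, had 0 to 11 counts per library and a mean of 0.305 CPM in WT and 0.366 CPM in APP/PS1. Without the filter its log2 change was 0.28 ± 0.50 (edgeR adjusted p = 0.944). Ccl5, or RANTES, made by T cells, platelets and endothelium, had 0 to 9 counts and means of 0.175 CPM in WT and 0.320 CPM in APP/PS1. Without the filter it changed by 0.91 ± 0.54 on the log2 scale (edgeR adjusted p = 0.809). The WT and APP/PS1 ranges of both genes overlapped, and a difference between the genotypes was not detectable at this depth.

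Ccl2 to Ccl5 belong to 2 groups of CC chemokine genes on chromosome 11, whose other genes were read for comparison. Ccl6, which lies between Ccl5 and Ccl3, rose from 1.72 CPM in WT to 3.99 CPM in APP/PS1, with a log2 change of 1.17 ± 0.20 (edgeR adjusted p = 0.00402). Ccl6 is a rodent chemokine made by myeloid cells. Its 7 APP/PS1 libraries lay at 3.09 to 5.08 CPM and its WT libraries at 1.01 to 3.43 CPM, with the highest of the latter again replicate 2 of inhibitor-treated WT. Ccl9, next to Ccl6, did not pass, at a log2 change of -0.31 ± 0.35 (edgeR adjusted p = 0.984). In the other group, which holds Ccl2, Ccl7, Ccl11, Ccl12, Ccl8 and Ccl1, no gene passed the filter, and Ccl1 had 2 counts in all.

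**Figure D2:**
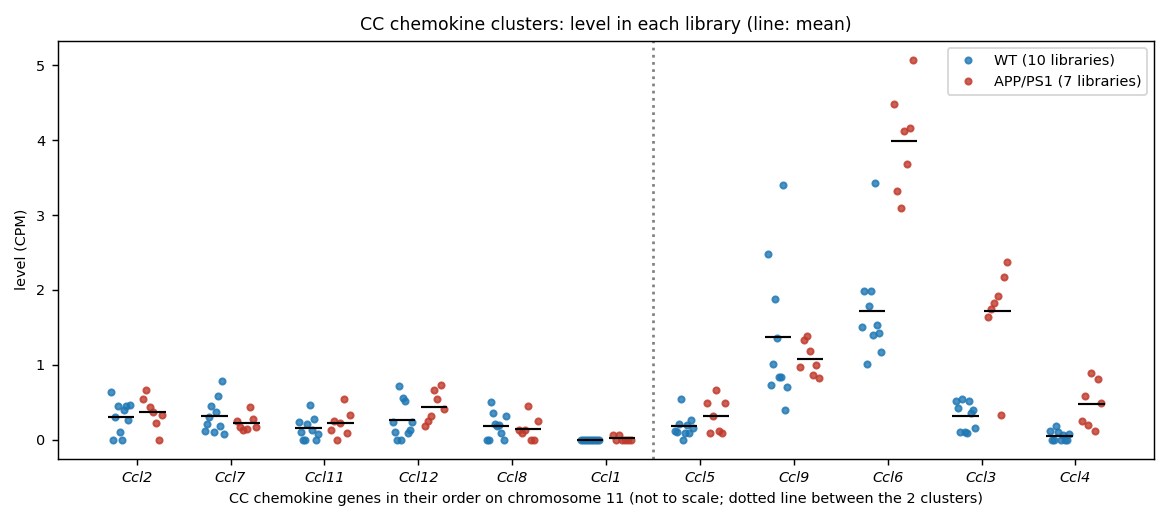
Levels (vertical axis, CPM) of 11 CC chemokine genes in their order on chromosome 11, with 1 point per library for 10 WT and 7 APP/PS1 libraries and a line at the mean. Ccl6, Ccl3 and Ccl4 sit higher in APP/PS1, and Ccl9, beside Ccl6, does not.

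Cxcl10, or IP-10, is induced by interferons and draws activated T cells through Cxcr3. It was at 0.173, 0.314, 1.42, 0.535 and 0.418 CPM in control-treated WT and at 0.187, 1.30, 0.359, 0.649 and 0.310 CPM in inhibitor-treated WT. The control-treated APP/PS1 libraries had 1.15 and 1.66 CPM, and the inhibitor-treated ones 1.07, 2.14, 0.325, 0.816 and 1.31 CPM. The genotypes overlapped, and 2 APP/PS1 libraries were above all WT libraries. The log2 change over both peptides was 1.12 ± 0.41 and did not pass (unadjusted p = 0.0117, edgeR adjusted p = 0.507). For the other genes of that signal, a list of 14 interferon-responsive genes was read. None passed (0 of 14), and 6 had an unadjusted p under 0.05, as did 1184 of all 18753 genes tested. All 14 had a positive log2 change with a median of 0.38, where 50.7% of all genes tested were positive. Ifit3, an antiviral protein gene, came nearest at 0.65 ± 0.15 (edgeR adjusted p = 0.0557). All 14 were also positive for the inhibitor in WT, with a median of 0.28, where 50.6% of all genes tested were positive. In that comparison 0 of the 14 were called. Replicate 2 of inhibitor-treated APP/PS1, the highest library for Cxcl10, was the highest for 9 of the 14 (64.3%). Of all genes tested, 4.62% were highest in that library.

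Cxcl16 is a membrane-anchored chemokine that binds Cxcr6 and scavenges oxidised lipoprotein. Control-treated WT libraries had 2.89, 2.62, 2.03, 5.09 and 1.67 CPM, and inhibitor-treated WT 2.71, 4.14, 2.24, 5.19 and 2.64 CPM. The APP/PS1 libraries had 4.18 and 4.57 CPM with the control peptide and 4.29, 5.38, 4.12, 3.81 and 6.22 CPM with the inhibitor. Most WT libraries were lower, but 3 of them lay within the APP/PS1 range. The log2 change was 0.54 ± 0.20 and did not pass (unadjusted p = 0.0149, edgeR adjusted p = 0.563). As a percentage of the microglial marker sum, Cxcl16 was at 1.63 ± 0.71% in WT and 1.54 ± 0.28% in APP/PS1.

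Cx3cl1, or fractalkine, is a membrane-bound chemokine made by neurons and endothelium, whose receptor Cx3cr1 sits on microglia and monocytes. It was at 750, 671, 581, 564 and 525 CPM in control-treated WT, and at 725, 777, 467, 432 and 607 CPM in inhibitor-treated WT. The APP/PS1 libraries were at 771 and 593 CPM with the control peptide and at 453, 565, 701, 444 and 900 CPM with the inhibitor. All groups overlapped, and the log2 change by genotype was 0.07 ± 0.15 (edgeR adjusted p = 0.998). Cxcl12, or SDF-1, made by brain endothelium and mural cells and bound by Cxcr4 and Ackr3, was the next in abundance. Its control-treated WT libraries were at 305, 508, 603, 747 and 494 CPM, and its inhibitor-treated WT libraries at 600, 613, 293, 500 and 547 CPM. In APP/PS1 it was at 520 and 698 CPM with the control peptide and at 402, 698, 466, 404 and 651 CPM with the inhibitor. These groups overlapped as well, with a log2 change of 0.10 ± 0.18 (edgeR adjusted p = 0.997).

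Of 18 conventional chemokine receptors, 7 were tested and 1 was called, where 0.587% of all genes tested were called. This was Cx3cr1, which rose from 29.7 CPM in WT to 50.4 CPM in APP/PS1 with a log2 change of 0.78 ± 0.13 (edgeR adjusted p = 0.00194). It is one of the 6 microglial markers counted above. Cxcr4, the Cxcl12 receptor, gave -0.07 ± 0.18. The receptors with the highest levels were Cx3cr1 at 8.48 and Cxcr4 at 2.33 CPM per kilobase. Besides Ackr1 there were 4 atypical receptors, of which 0 were called, with Ackr3, a Cxcl12 scavenger, the most abundant at 10.7 CPM per kilobase, then Ccrl2 at 2.02 and Ackr2 at 1.04. The median log2 change of the 7 receptors tested was -0.05.

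Among 27 further ligands, 7 were tested and Ccl6 was the 1 called, again where 0.587% of all genes tested were called. Cxcl14 was the most abundant of them at 23.2 CPM per kilobase, followed by Ccl25 at 6.28 and Pf4, the platelet chemokine, at 2.72. Cxcl15 and Ccl20 had 0 counts in every library, which allows up to 3 counts per library. Of 14 genes that shed membrane chemokines or build the heparan sulfate that displays them, all were tested and 0 were called. The change was positive in 9 of them, with a median of 0.02, where 50.7% of all genes tested were positive. The most abundant were Sdc3 at 45.4, the sheddase Adam10, which releases Cx3cl1 and Cxcl16, at 34.0 and Sdc4 at 17.1 CPM per kilobase.

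Cxcl1, also called KC, recruits neutrophils through Cxcr2. It was at 0.867, 0.209, 0.406, 0.446 and 0.104 CPM in control-treated WT. Inhibitor-treated WT libraries were at 0.187, 9.46, 1.34, 0.779 and 0.543 CPM. The APP/PS1 libraries were at 0.606 and 0.582 CPM with the control peptide and at 0.189, 0.663, 0.108, 0.0906 and 0.328 CPM with the inhibitor. One library stood apart: replicate 2 of inhibitor-treated WT had 146 counts, and no other library had more than 15. Its genotype change over both peptides was -1.97 ± 0.82 (unadjusted p = 0.0271, edgeR adjusted p = 0.670). With the inhibitor it was -3.13 ± 0.89 (edgeR adjusted p = 0.477), and with the control peptide, whose group means do not hold that library, it was 0.41 ± 1.24 (edgeR adjusted p = 1.00). Without replicate 2 of inhibitor-treated WT, in a fit with no filter, the values over both peptides and with the inhibitor were -0.54 and -1.27. None of these passed the threshold after adjustment over all genes.

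Promoter windows of 3 genes are shown because the same library was high for genes that respond to NF-kB, and because Ccl3 was the one gene called. They run from position -250 to position -11 before the RefSeq start of transcription (assembly GRCm38.p6), and RefSeq windows matched 6 of the 10 genes. Letters in capitals match a searched motif, on either strand and with no overlap between matches. The kappaB motif of NF-kB was searched as GGG, any 2 bases and TTTCC, or as GGG, any 2 bases and TTCCC, and that of interferon factors as GAAA, any 2 bases and GAAA. Cxcl1 lies at chr5:90890995-90891234 on the plus strand, Cxcl10 at chr5:92348900-92349139 on the minus strand and Ccl3 at chr11:83649389-83649628 on the minus strand.
Cxcl1: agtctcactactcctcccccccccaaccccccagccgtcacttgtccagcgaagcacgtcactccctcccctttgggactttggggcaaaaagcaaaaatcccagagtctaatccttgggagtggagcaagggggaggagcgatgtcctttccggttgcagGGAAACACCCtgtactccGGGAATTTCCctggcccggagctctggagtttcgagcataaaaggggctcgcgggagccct
Cxcl10: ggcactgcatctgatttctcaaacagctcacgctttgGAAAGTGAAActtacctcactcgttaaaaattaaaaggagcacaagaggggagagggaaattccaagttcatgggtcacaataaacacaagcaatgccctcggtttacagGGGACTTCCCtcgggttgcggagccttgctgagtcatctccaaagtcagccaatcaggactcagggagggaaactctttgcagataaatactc
Ccl3: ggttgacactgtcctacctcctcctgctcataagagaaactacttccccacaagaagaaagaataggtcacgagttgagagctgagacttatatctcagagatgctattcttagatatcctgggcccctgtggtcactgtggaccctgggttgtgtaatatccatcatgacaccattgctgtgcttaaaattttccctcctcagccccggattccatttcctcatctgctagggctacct
The Cxcl1 window held kappaB letters at -89 to -80, read on the opposite strand, and at -71 to -62. The Cxcl10 window held kappaB letters at -103 to -94 and the interferon motif at -213 to -204. Of 32851 promoter windows of 300 bases, 1.63% held the kappaB motif ending in TTTCC, 1.75% the one ending in TTCCC and 3.44% the interferon motif. In the Ccl3, Ackr1, Cxcl12 and Cx3cl1 windows none of these letters was found, which says nothing of other sites.

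Ackr1 is the gene for the receptor that binds chemokines in venules. It lies at chr1:173331886-173333750 on the minus strand. It was at 44.0, 27.0, 22.8, 19.8 and 26.2 CPM in control-treated WT and at 26.8, 101, 26.3, 19.7 and 23.4 CPM in inhibitor-treated WT. The APP/PS1 libraries were at 30.1 and 22.1 CPM with the control peptide and at 23.2, 23.6, 22.6, 20.5 and 28.0 CPM with the inhibitor. Apart from replicate 2 of inhibitor-treated WT and replicate 1 of control-treated WT, every library was between 19.7 and 30.1 CPM. The genotype change was -0.51 ± 0.31 and did not pass (edgeR adjusted p = 0.881), and without that replicate 2 it was -0.06. With the inhibitor it was -0.75 ± 0.39, and without that library -0.03. The 6 venular endothelial markers summed to 383 to 880 CPM in WT and 470 to 890 CPM in APP/PS1. Most of that sum was Vwf, with a mean of 512 CPM in WT and 522 CPM in APP/PS1.

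The library with the high Cxcl1 and Ackr1 also had the highest levels of endothelial activation genes. Sele and Selp, the endothelial selectins that make leukocytes roll, were at 27.7 and 10.8 CPM there and at no more than 1.57 and 1.16 CPM in the other 16 libraries. Icam1 and Vcam1, to which leukocytes then adhere, were at 97.5 and 350 CPM against at most 37.1 and 173 CPM. Of 11 NF-kB-responsive genes tested, 8 were highest in this library (72.7%), where 4.21% of all genes tested were highest in it. Elsewhere Sele and Selp reached levels little above the 0.882 CPM of the filter, so this library may have decided that they were tested. The 8 of 11 is therefore not a rate to weigh against that share. None of the 14 interferon-responsive genes was highest in this library. Cxcl2, the other main Cxcr2 ligand, had 15 counts there and at most 2 elsewhere, and Cxcr2, the neutrophil receptor, 38 counts against at most 10. The neutrophil markers did not all follow: of the 6 tested, S100a8, S100a9 and Cxcr2 were highest there, and the other 3 were not. Cxcr2 reached at most 1.05 CPM elsewhere, so this library may also have decided that Cxcr2 was tested. S100a8 and S100a9, abundant cytosolic proteins of neutrophils, were at 3.17 and 2.20 CPM, against at most 1.83 and 1.66 CPM. The granule protein genes Ngp and Ltf were at 1.23 and 0.583 CPM, against at most 4.49 and 2.49 CPM. Of the markers left out by the filter, Retnlg had 25 counts there and at most 8 elsewhere. Camp had 1 count against at most 6, and Ly6g 0 against at most 1. The 8 neutrophil markers without Csf3r summed to 11.3 CPM there and to 1.16 to 4.97 CPM in the 9 other WT libraries. In 1 control-treated APP/PS1 library they summed to 11.6 CPM. The 5 erythroid markers summed to 31.7 CPM there, to 1.04 to 16.9 CPM in the 9 other WT libraries and to 9.63 to 38.0 CPM in APP/PS1. These values were read after this library had been seen to stand apart. The part of neutrophils, of erythroid cells or of the vessels' state in its Cxcl1 and Ackr1 levels was not tested.

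**Figure D3:**
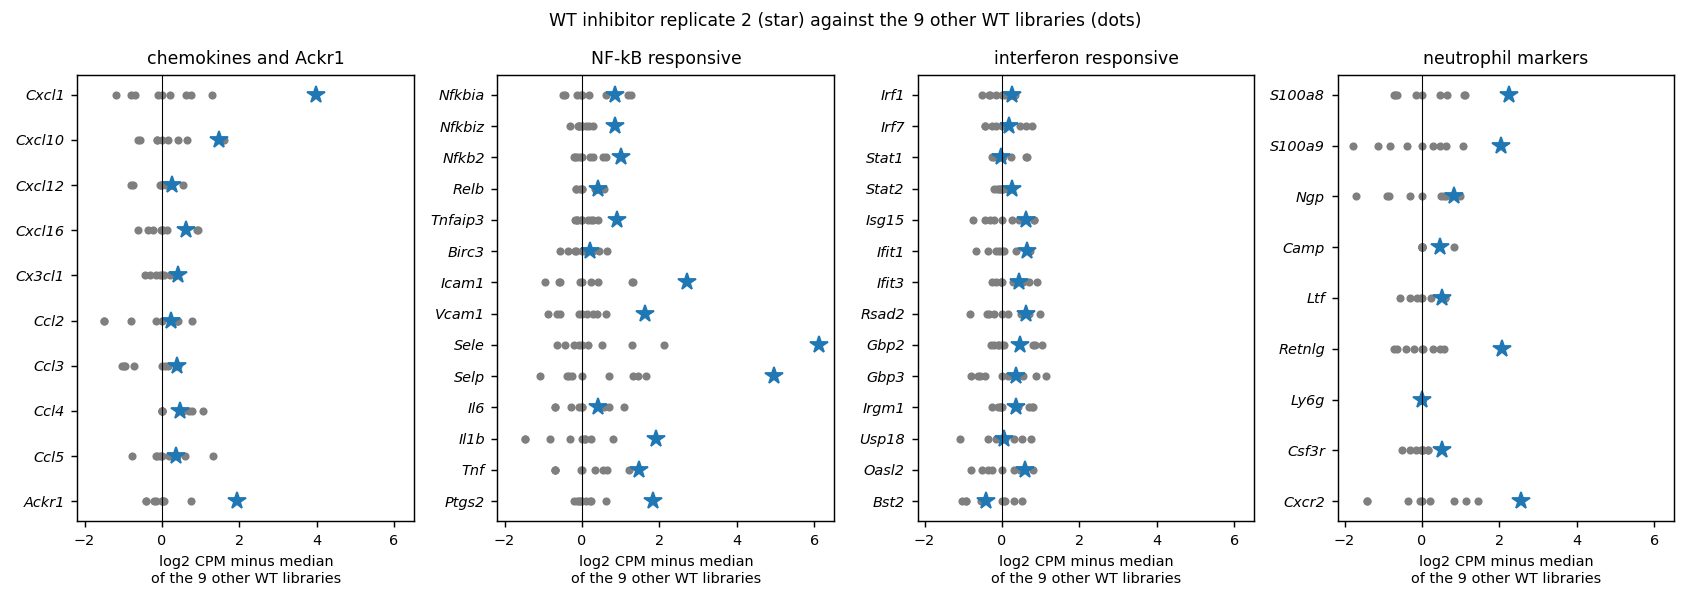
Level in replicate 2 of inhibitor-treated WT (stars) and in the 9 other WT libraries (dots), as log2 CPM minus the median of those 9 (horizontal axis), for the 10 genes and for NF-kB-responsive, interferon-responsive and neutrophil genes. The star lies to the right of all dots for Cxcl1, Ackr1, Sele, Selp, Icam1 and Vcam1, and for the interferon-responsive genes it lies among or beside the dots.

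The second question was whether the NOX2 inhibitor changed these genes. Of the 7 tested, 0 were called in APP/PS1 (5 against 2 libraries), in WT (5 against 5), over both genotypes (10 against 7) or for the difference of the inhibitor effects between genotypes. The background was the same, with 0% of all genes called in each of these 4 comparisons by edgeR and 0 genes by DESeq2, while 324, 247, 390 and 155 genes had an unadjusted p under 0.05. One chemokine reached an unadjusted p under 0.05: Cxcl1, with a log2 change of 2.52 ± 0.84 in WT (edgeR adjusted p = 1.00) and a difference between genotypes of -3.54 ± 1.58. Without replicate 2 of inhibitor-treated WT, these became 0.67 and -1.69 in a fit with no filter. The Ackr1 value in WT went from 0.50 ± 0.39 to -0.22 with the same library left out, and neither passed. For Ccl3 in APP/PS1, the inhibitor gave a log2 change of 0.05 ± 0.50. That error allows sizeable changes in either direction, since control-treated APP/PS1 had 2 libraries. For the abundant genes in WT the change was -0.06 ± 0.23 for Cxcl12 and -0.04 ± 0.20 for Cx3cl1.

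**Figure D4:**
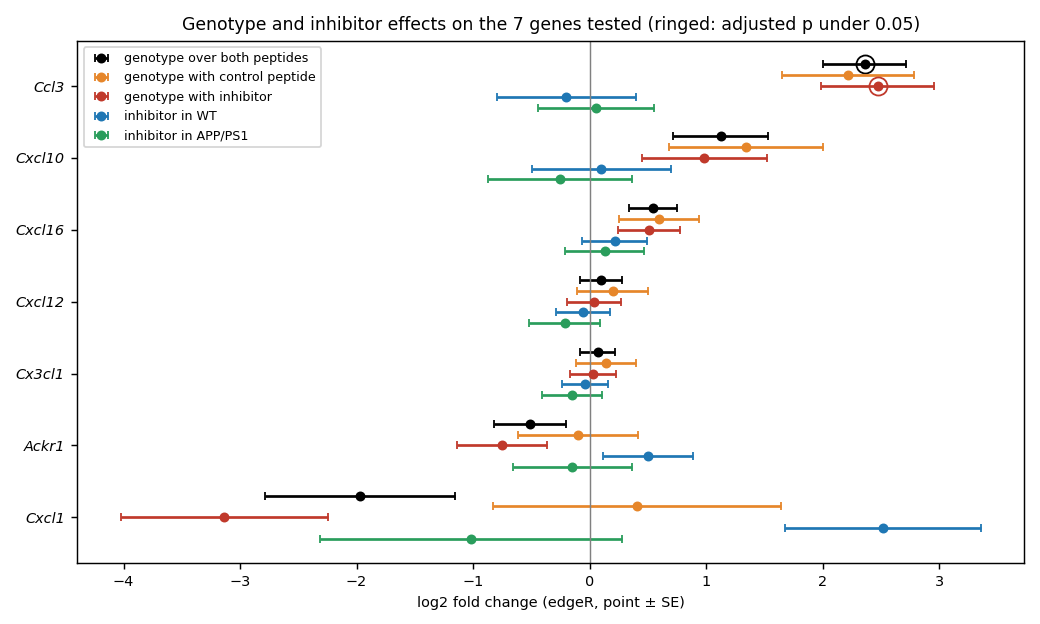
Log2 fold change ± SE (horizontal axis, edgeR) of the 7 genes tested in 5 comparisons, with a ring around values whose adjusted p is under 0.05. Ccl3 is ringed for genotype over both peptides (2.36) and with the inhibitor (2.47), and the Cxcl1 bars are the widest.

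The 4 genes with a mean of at least 1 CPM were then compared across the 17 libraries. Of their 6 pairs, 0 passed by Pearson correlation after adjustment. Cx3cl1 and Ackr1 came nearest, with r = 0.53 (permutation p = 0.0160, adjusted 0.0958) and rho = 0.74 (permutation p = 0.00105, adjusted 0.0063). Without the 2 libraries farthest from the Cx3cl1 median, r was 0.57.

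Against 17 cell type marker lists, 68 relations in all, the strongest relations of the 2 abundant ligands were with different lists. In the 3 alternative settings 8 to 12 of these relations passed after adjustment, and not all that passed are named here. Cx3cl1 was correlated with the 6 neuron markers, at r = 0.86 (permutation p = 1e-05, about the smallest that 100000 resamples give, adjusted 0.00068) and rho = 0.88, and at r = 0.82 without the 2 libraries farthest in the neuron score. Cxcl12 was correlated with the 6 arterial endothelial markers (r = 0.75, permutation p = 0.00037, adjusted 0.0122, rho = 0.85, r = 0.75 without 2 libraries). It was also correlated with the 6 pericyte markers (r = 0.73, permutation p = 0.00069, adjusted 0.0122, rho = 0.87, r = 0.67 without 2 libraries). With the erythroid markers Cxcl12 gave r = 0.73 (permutation p = 0.00111), which rested on 2 libraries, since it was 0.36 without them. Ackr1 was correlated with the neuron markers (r = 0.66, permutation p = 0.00076, adjusted 0.0122, rho = 0.81, r = 0.66 without 2 libraries). Cxcl16 was correlated with the microglial markers (r = 0.68, permutation p = 0.00326, adjusted 0.0277, rho = 0.69, r = 0.60 without 2 libraries), but on deviations from the group means it did not pass (r = 0.44, permutation adjusted p = 0.191).

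**Figure D5:**
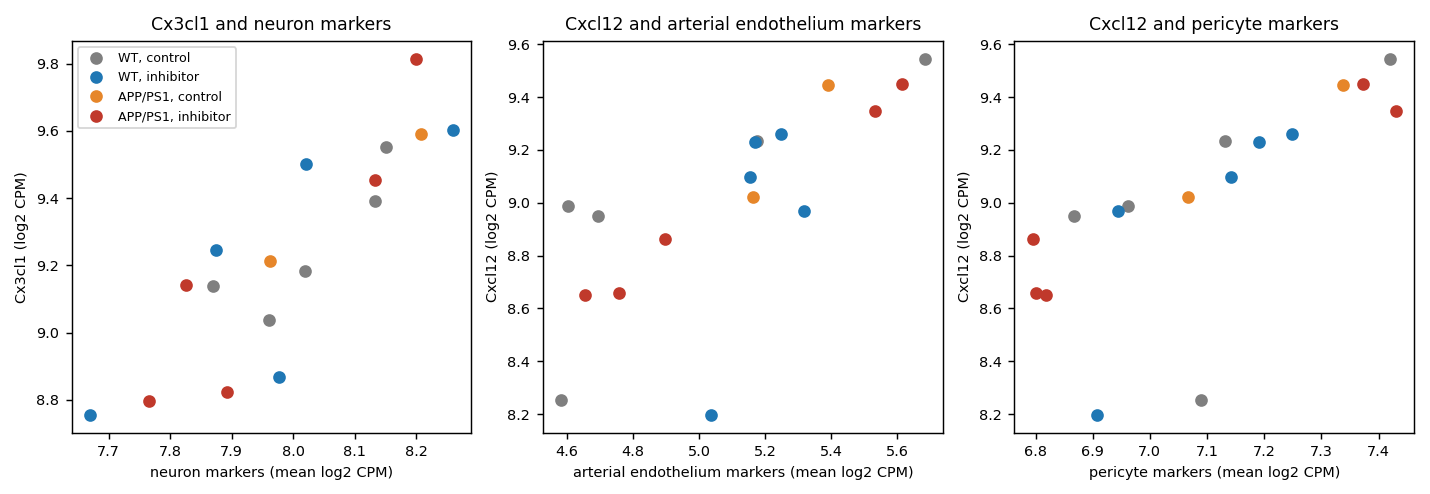
Level of Cx3cl1 or Cxcl12 (vertical axis, log2 CPM) against the mean log2 CPM of a marker list (horizontal axis), with 1 point per library and colours for the 4 groups. Cx3cl1 rises with neuron markers (r = 0.86), and Cxcl12 with arterial endothelial (r = 0.75) and pericyte markers (r = 0.73).

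The genes whose levels followed each of these 4 most closely were searched among 17207 genes, as a description over 17 libraries that share their depth and cell makeup. For Cxcl12 they were Kdr (r = 0.94), the endothelial VEGF receptor, Itm2a (0.93) and Bsg (0.93). Cx3cl1 was followed by Ociad1 (0.97), Atrn (0.97) and Sirpa (0.97), a neuronal and myeloid membrane protein. Cxcl16 was nearest to Gm8995 (0.89), Marf1 (0.87) and Tgfbr1 (0.87), a receptor for TGF-beta. For Ackr1 they were Ptgs2 (0.86), the inducible cyclooxygenase, Ankrd34a (0.86) and Sele (0.81), and the rank correlations of Ptgs2 (rho = 0.58) and Sele (rho = 0.21) were lower, since both genes were highest in the library that stood apart.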

How the data were processed

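The authors deposited a table of raw read counts per Ensembl gene. The submitters' processing notes name cutadapt, STAR, HTSeq and DESeq2 and the builds mm10 and GRCh37, with no roles. The strand setting, annotation and filters are not given in the sources used here, and reads shared by similar genes are uncertain. Libraries were made with a stranded kit after ribosomal RNA depletion, per the labels' protocols. A further 20 columns matched no sample and were not used. Symbols, exon lengths and gene coordinates came from GENCODE vM21 (GRCm38): 42250 IDs matched and 437 did not. None of the 136 pairs of libraries was identical.

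Genes kept by filterByExpr over the 4 groups (18753) were tested with edgeR 4.0.16 (quasi-likelihood, robust, TMM, R 4.3.3), with Benjamini-Hochberg adjustment at 0.05. The models had 1 mean per group, or genotype plus peptide for the comparisons over both. All 17 libraries shared a dispersion. Scripts were tested on simulated data. Correlations used log2 CPM (prior count 2) and 100000 permutations, two-sided (scipy and numpy). Alternatives were DESeq2 1.42.0, its size factors, other filters, only the groups compared, and leaving out each library. Fits without the filter that also left out libraries were added after seeing the data. The precision of low genes is limited by counts, and a count of 0 allows 3.

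All 10 genes were to be named. Of the other lists, the rule named genes past the threshold, the 3 with the highest level per length, those at 0 everywhere, and for each of the 4 genes at 1 CPM or more the 3 most alike. Other names were chosen after their values were seen. The genes and lists were chosen with earlier results of these data known. Some genes that this rule names are not reported here.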

Additional observations from a re-analysis of the deposited data

Results flagged for a closer look

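In 30 groups of 5 libraries (10 genes in 3 groups), a single library was set against the rest by Dixon's ratio, the gap to its nearest neighbour divided by the group's range, on log2 CPM (prior count 2) with a critical value of 0.71. Chance flags about 1 in 20 groups, or 1.5 of 30, and 3 were found. Ccl3 in replicate 3 of inhibitor-treated APP/PS1 was the lowest of its group at 0.325 CPM, with a ratio of 0.853. Ackr1 in replicate 2 of inhibitor-treated WT was the highest of its group at 101 CPM, with a ratio of 0.813. Cxcl12 in replicate 3 of inhibitor-treated WT was the lowest of its group at 293 CPM, with a ratio of 0.725. Cxcl1 in that replicate 2 of inhibitor-treated WT, at 9.46 CPM, had a ratio of 0.560 and did not pass. On CPM without logs, a scale added after seeing the data, 3 also passed: Ackr1 (0.913), Cxcl1 (0.875) and Ccl3 (0.734) in the same libraries, while Cxcl12 did not (0.649).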

How the results depend on the processing

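The limits are the 2 control-treated APP/PS1 libraries, the low counts of Ccl2, Ccl4, Ccl5, Cxcl1 and Ccl3, and unknown counting settings. No paired analysis was possible because the labels carry no replicate numbers shared between groups. With DESeq2 the genotype comparisons called 182 genes over both peptides (110 in edgeR), 45 with the control peptide (10) and 61 with the inhibitor (34). In edgeR without the filter, 17 genes were called with the control peptide. Without the filter and without replicate 2 of inhibitor-treated WT, 16 were called with the control peptide and 41 with the inhibitor. Leaving out 1 library gave 71 to 127 genes over both peptides (71 without replicate 2 of control-treated APP/PS1), 4 to 18 with the control peptide and 16 to 38 with the inhibitor. With the control peptide, counts moved by over 1.5 times without replicates 3 (6) and 4 (18) of control-treated WT and replicates 1 (6) and 2 (4) of control-treated APP/PS1. With the inhibitor this held without replicates 1 (22), 3 (22) and 5 (16) of inhibitor-treated WT and replicates 2 (20) and 4 (19) of inhibitor-treated APP/PS1. The cause was not tested. On deviations from group means, 1 pair of genes passed in place of 0 (Cx3cl1 and Ackr1, r = 0.59, permutation adjusted p = 0.0491). Of 588 alternatives for 38 values of single genes, 550 kept their direction and side of the threshold, 8 lost the Ccl3 call with the inhibitor, and 30 changed direction, all on leaving out 1 library and none of a called value. The log2 ranges over libraries left out were as follows. With genotype over both peptides, Cx3cl1 ran from -0.0363 to 0.138. With genotype under the control peptide, Cxcl12 ran from -0.0292 to 0.394, Cx3cl1 from -0.0593 to 0.320 and Ackr1 from -0.346 to 0.128. With genotype under the inhibitor, Cxcl12 ran from -0.108 to 0.121 and Cx3cl1 from -0.154 to 0.135. For the inhibitor in APP/PS1, Cxcl10 ran from -0.612 to 0.0125, Cxcl12 from -0.412 to 0.0112, Cx3cl1 from -0.336 to 0.0469, Ccl3 from -0.0784 to 0.291 and Ackr1 from -0.353 to 0.0941. For the inhibitor in WT, Cxcl10 ran from -0.587 to 0.743, Cxcl12 from -0.203 to 0.0982, Cx3cl1 from -0.149 to 0.0506, Ccl3 from -0.564 to 0.0524 and Ackr1 from -0.221 to 0.733. The Ackr1 difference between genotypes ran from -0.883 to 0.072.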
